A study of Mus musculus with 54 samples.

Results

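The 5 oocyte genes Zp1, Zp2, Zp3, Gdf9 and Bmp15 were followed across every group of a mouse exposure study. They were selected by gene symbol, and all 5 were found in both deposited count tables, each of which lists 26264 genes. Poly(A) RNA of whole ovary and whole testis was sequenced, with 27 libraries of each tissue in 9 groups of 3. The study asked what a mixture of pharmaceuticals in drinking water did to the gonads of exposed animals (F1) and of the next generation (F2). F1 ovaries were taken at 30 days after birth (dpp) and F1 testes at 35 dpp, from animals exposed from 8.5 days after coitum, first through the pregnant mother, until they were killed. F1 control animals received water with 0.001% ethanol. Dose 1 held 11.3 ng/L of ibuprofen, 90 ng/L of 2-hydroxyibuprofen, 22.5 ng/L of diclofenac and 2.25 ng/L of ethinyl-estradiol, and dose 2 held 113, 225, 112 and 45 ng/L of the same compounds. F2 groups, collected at the same ages, are named by their parents: a control cross, maternal dose 1 or 2 (exposed mother, control father), paternal dose 1 or 2 (exposed father, control mother) and biparental dose 2. The labels give no dose for F2 animals themselves, and they do not say whether replicates A, B and C were separate animals, litters or pools, so p-values measure only the spread between these libraries.

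The zona pellucida is the glycoprotein coat that a growing oocyte lays down around itself. ZP2 and ZP3 are the main building blocks of its filaments, ZP1 cross-links them, and sperm bind to this coat. GDF9 and BMP15 are related growth factors of the TGF-beta superfamily that the oocyte secretes. Surrounding granulosa cells bind them through BMPR2 and type I receptors, SMAD proteins carry the signal, and granulosa growth and cumulus expansion depend on them. All 5 genes are transcribed in growing oocytes, where the factors FIGLA (for the zona genes) and NOBOX (for Gdf9 and Bmp15 among others) are known regulators. In whole-ovary RNA, fewer growing oocytes and less RNA per oocyte cannot be told apart.

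Promoter sequence is shown because the 5 genes varied together, as described further on. RefSeq promoter entries (GRCm38.p6) matched 2 of the 5 genes. The 250 bases before the start of Zp3, at chr5:135979855-135980104 on the plus strand, and of Bmp15, at chrX:6320725-6320974 on the minus strand, are printed 5′ to 3′ along the gene's own strand. Capitals mark CANNTG, the E-box letters that FIGLA-type factors recognise, and TAATTA, a homeobox-type motif, both searched on both strands together with TAATTG, another homeobox-type motif.
Zp3: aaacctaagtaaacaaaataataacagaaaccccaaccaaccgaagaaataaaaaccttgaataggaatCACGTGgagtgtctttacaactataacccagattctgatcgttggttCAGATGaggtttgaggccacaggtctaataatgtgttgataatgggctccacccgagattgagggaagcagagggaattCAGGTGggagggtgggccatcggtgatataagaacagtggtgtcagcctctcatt
Bmp15: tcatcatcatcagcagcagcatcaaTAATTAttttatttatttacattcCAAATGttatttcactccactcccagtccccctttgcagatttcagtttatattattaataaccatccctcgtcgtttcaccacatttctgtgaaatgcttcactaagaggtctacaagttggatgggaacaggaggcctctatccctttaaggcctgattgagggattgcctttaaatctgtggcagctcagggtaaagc
The Zp3 window held 3 CANNTG matches, beginning 181, 134 and 55 bases before the start, and neither TAATTA nor TAATTG. The match at 181 bases reads CACGTG. The Bmp15 window held 1 CANNTG match, 201 bases before the start, and 1 TAATTA match, 225 bases before it. Of 32851 promoters of the same length, 66.2% held CANNTG, 6.02% held CACGTG, 4.84% held TAATTA and 7.17% held TAATTG. These are letter matches and not binding sites. Zp1, Zp2 and Gdf9 had no entry.

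Total counts per library, rounded to 6 digits, were 36640600 to 57383300 in F1 ovary, 37912600 to 84721400 in F2 ovary, 31816300 to 122397000 in F1 testis and 31553800 to 48237300 in F2 testis. Levels are given as CPM, the count of a gene divided by the total count of its library and scaled in the usual way. The summed level of 13 granulosa cell markers was 9512 to 15108 CPM in ovary and 308 to 460 CPM in testis, which matched the tissue labels. Ovary libraries stood apart in 2 cases. F1 control A held testis germ cell transcripts, with a sum of 1334 CPM over 8 markers and 252 CPM of Prm1, a sperm chromatin protein. That sum was 11.3 to 94.4 CPM in the other F1 ovary libraries and 0.237 to 1.06 CPM in all 18 F2 ovary libraries. F2 maternal dose 1 C had the lowest level of the nuclear RNA Malat1, at 67.1 CPM, where the next lowest ovary library had 248 CPM. Values without one of these libraries are given where they changed a call, and for some of the counts and fold changes that moved.

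All 5 genes were well measured in ovary. The smallest of their counts in any ovary library was 1547, for which counting error alone is 2.54%. Per kilobase of exon (lengths from GENCODE M21 on GRCm38, which may differ from the annotation used for counting), the growth factor gene Gdf9 averaged 85.7 ± 19.1 CPM per kb (SD, n = 27) and Zp3 averaged 85.6 ± 19.8. Zp2 followed at 63.7 ± 11.01 CPM per kb. Zp1 was lower at 28.9 ± 5.66 CPM per kb, and Bmp15 lowest at 16.4 ± 2.90. On this scale Bmp15 ranked lowest and Zp1 second lowest in 27 of 27 libraries. Gdf9 ranked highest in 15 libraries and Zp3 in the other 12, so the order of these 2 was not fixed. Across libraries the highest CPM exceeded the lowest by 1.92-fold for Zp2, 1.94-fold for Bmp15, 2.196-fold for Zp1, 2.57-fold for Gdf9 and 2.64-fold for Zp3.

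**Figure D1:**
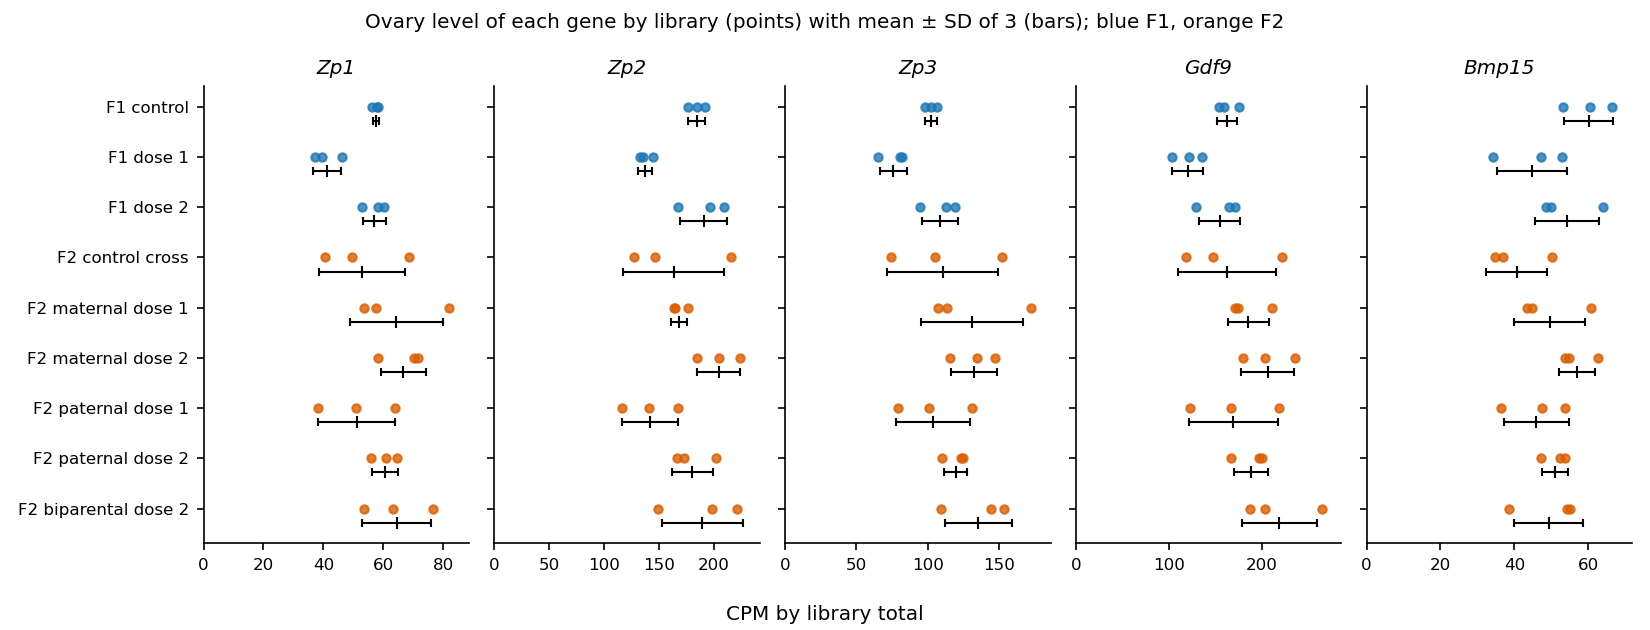
CPM of each gene (x axes, from 0) in the 9 ovary groups, with 1 point per library and the mean ± SD of 3 libraries as a bar under the points. The 3 F1 dose 1 libraries lay below the 3 F1 control libraries for every gene, for Bmp15 only just. F2 groups spread widely, from 74.0 to 152 CPM for Zp3 in the control cross.

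Exposure in F1 was addressed first. By CPM on library totals, all 5 transcripts were lower in every dose 1 ovary library than in every control library. For Bmp15 the gap was narrow and was lost on TMM library sizes. Log2 fold changes were -0.46 to -0.40, while dose 2 and control overlapped. No gene in the genome-wide edgeR test passed after adjustment, and DESeq2 passed Zp1 and Zp2. The 5 genes are given in turn.

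Zp1 stood at 58.1, 58.1 and 56.4 CPM in F1 control A, B and C, at 39.7, 46.3 and 37.4 CPM in dose 1, and at 52.7, 58.3 and 60.1 CPM in dose 2. Zp2 stood at 192, 185 and 177 CPM in control, at 145, 132 and 135 CPM in dose 1, and at 167, 209 and 197 CPM in dose 2. Zp3 stood at 106, 97.9 and 102 CPM in control, at 81.6, 80.8 and 65.1 CPM in dose 1, and at 94.5, 119 and 113 CPM in dose 2. For each of these zona genes the dose 1 libraries were all lower than the control libraries and all lower than the dose 2 libraries, while control and dose 2 overlapped. Gdf9 stood at 159, 153 and 175 CPM in control, at 121, 136 and 103 CPM in dose 1, and at 130, 171 and 164 CPM in dose 2. Bmp15 stood at 60.5, 53.3 and 66.5 CPM in control, at 47.2, 52.9 and 34.2 CPM in dose 1, and at 48.7, 50.0 and 64.1 CPM in dose 2. Dose 1 also lay below control for both growth factors, with Bmp15 only just separated (52.9 against 53.3 CPM). On TMM library sizes Bmp15 overlapped, at 53.7 CPM in dose 1 B and 52.5 CPM in control B. Dose 1 and dose 2 overlapped for both growth factors.

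By CPM on library totals, libraries of dose 1 were all below control for 5 of 5 genes. Of the 14893 genes with a mean of at least 1 CPM, 6.3% showed the same separation. On TMM library sizes Bmp15 overlapped. The 5 genes varied together, with Pearson's r of 0.596 to 0.939 over the F1 libraries, so the 5 separations are not independent. In edgeR's quasi-likelihood test, dose 1 differed from control by a log2 fold change of -0.46 for Zp1 (SE 0.0931, unadjusted p = 0.000862). Zp2 differed by -0.40 (SE 0.0828), Zp3 by -0.41 (SE 0.112), Gdf9 by -0.42 (SE 0.133) and Bmp15 by -0.40 (SE 0.177). The unadjusted edgeR p was under 0.05 for 5 of 5 members and highest for Bmp15, at 0.0499. None passed after Benjamini-Hochberg adjustment (adjusted p = 0.55 for each, edgeR): 0 of 5 members were called, as were 0 of 17896 genes (0%). At an unadjusted p under 0.05 edgeR listed 1490 genes, 1076 of them lower, and 610 genes without control A. DESeq2 on the same counts called 26 genes (0.204%), 2 of them members, Zp1 (adjusted p = 0.0213) and Zp2 (adjusted p = 0.0134), so the call depended on the tool. Over the 12 alternatives for Zp1 the adjusted p ran from 0.0213 to 1.00, and for Zp2 from 0.0134 to 1.00. All 8 testis germ cell markers were also lower in dose 1 than in control ovaries (median log2 fold change -3.43), while without control A 6 of the 8 were higher (median 0.36). Without control A the members' log2 fold changes were -0.47 for Zp1, -0.39 for Zp2 and Zp3, -0.44 for Gdf9 and -0.41 for Bmp15, and 4 of 5 had an unadjusted edgeR p under 0.05, Bmp15 no longer. Over its 12 alternatives the log2 fold change of Bmp15 ran from -0.56 to -0.23.

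Dose 2 ovaries differed little from control, with log2 fold changes of -0.03 for Zp1, 0.03 for Zp2, 0.07 for Zp3, -0.09 for Gdf9 and -0.17 for Bmp15 (0 of 5 called by edgeR, 0% of genes; at an unadjusted p under 0.05 edgeR listed 671 genes and no member, and DESeq2 called 8 genes (0.0469%) and no member). The 95% intervals limit how large a difference could have been missed: they ran from -0.24 to 0.18 for Zp1, from -0.16 to 0.22 for Zp2, from -0.18 to 0.33 for Zp3, from -0.39 to 0.21 for Gdf9 and from -0.57 to 0.24 for Bmp15.

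Dose 2 was higher than dose 1 by a log2 fold change of 0.43 for Zp1 (SE 0.0931), 0.44 for Zp2 (SE 0.0828), 0.48 for Zp3 (SE 0.112), 0.33 for Gdf9 (SE 0.133) and 0.24 for Bmp15 (SE 0.177). No member passed in edgeR (adjusted p = 0.809 for the first 4 and 0.899 for Bmp15), nor did any other gene (0%), with 1077 genes, 4 of them members, at an unadjusted p under 0.05. The libraries did not overlap for Zp1, Zp2 and Zp3, a separation that 7.98% of genes showed. DESeq2 called 57 genes (0.378%), among them Zp1 (adjusted p = 0.0247), Zp2 (0.0017) and Zp3 (0.0354), and over their 13 alternatives each the adjusted p reached 0.999. In a test of any difference among the 3 F1 groups edgeR called 0 members and 0% of genes, with 989 genes, 4 of them members, at an unadjusted p under 0.05, and DESeq2 called 68 genes (0.451%), 3 of them members. The comparisons of dose 1 with control and of dose 2 with dose 1 share the dose 1 libraries and are not independent.

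**Figure D2:**
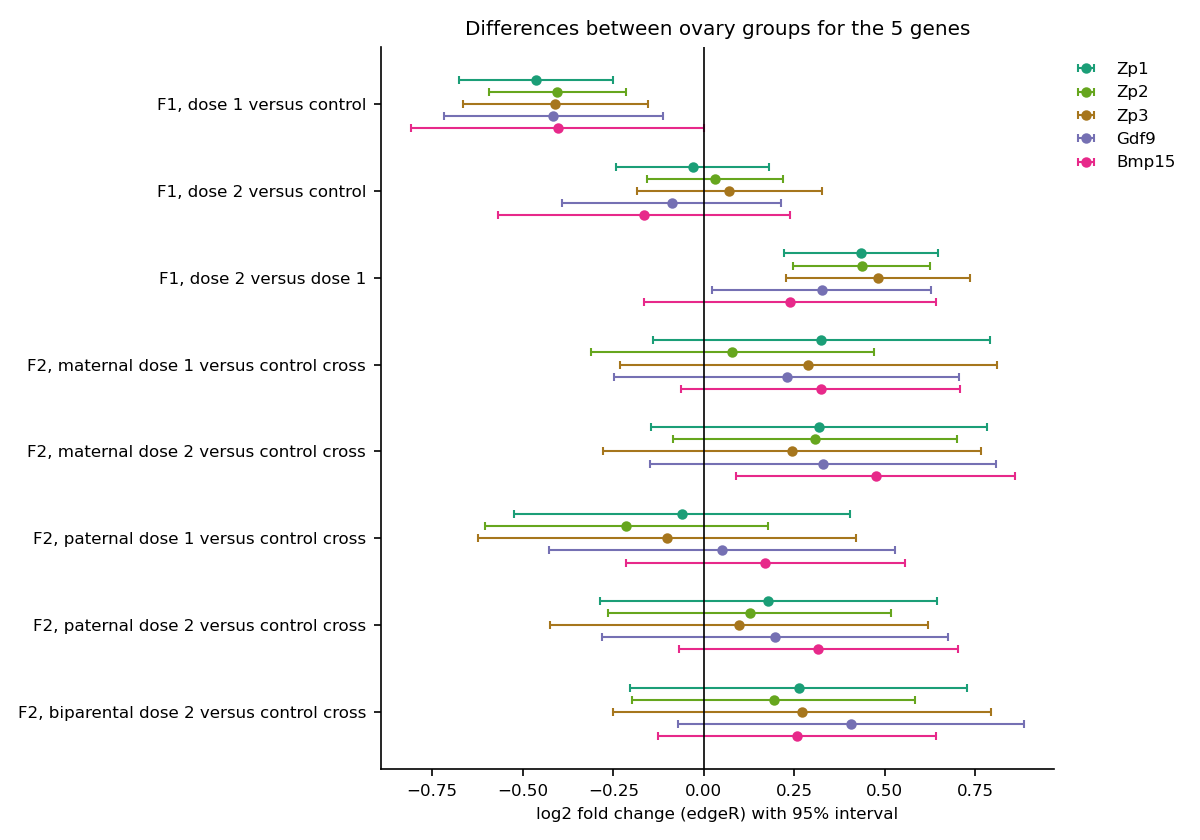
Log2 fold change of each gene (x axis) with its 95% interval from edgeR, for the 8 comparisons between ovary groups. The 5 genes sat together between -0.46 and -0.40 in F1 dose 1 against control, and of the F2 intervals only that of Bmp15 in maternal dose 2 left out 0.

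Other oocyte transcripts were compared in the same F1 groups. Of 25 other oocyte marker genes tested, 25 were lower in dose 1 than in control, with a median log2 fold change of -0.36 against a median of -0.0017 over all genes, and none was called by edgeR (13 at an unadjusted p under 0.05). Without control A the counts were again 25 and 13, with a median of -0.38. In dose 2 against dose 1, 24 of the 25 were higher (median 0.31). The list includes Nlrp5, Ooep, Tle6, Khdc3 and Padi6, whose proteins form a complex under the oocyte membrane. Their summed level was 1341 ± 69.8 CPM in control, 1023 ± 84.0 CPM in dose 1 and 1348 ± 177 CPM in dose 2 (SD, n = 3 each). The sum of the 5 genes divided by that sum was 0.423 ± 0.00998 in control, 0.410 ± 0.0107 in dose 1 and 0.420 ± 0.00899 in dose 2, with no test made. The range was 0.402 to 0.422 in dose 1 and 0.414 to 0.434 in control, so these overlapped.

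No gene of the regulators, receptors or targets was called in this comparison. Of 11 oocyte transcription regulators, 9 were lower in dose 1 than in control (median -0.26, 0 called). Nobox, the homeobox regulator of Gdf9, was at -0.34 (unadjusted p = 0.018 by edgeR, adjusted p = 0.55, edgeR), and Figla, the regulator of the zona genes, at -0.21 (SE 0.252, adjusted p = 0.82). The 17 receptor, SMAD and convertase genes that receive or process GDF9 and BMP15 split nearly evenly, with 8 higher and 9 lower (median 0.00, 0 called). Of 13 cumulus and granulosa targets tested, 8 were higher and 5 lower (median 0.07, 0 called), and without control A 5 of 14 were higher and 9 lower (median -0.25, 0 called). Of 10 oocyte surface and zona interacting genes, 4 were higher and 6 lower (median -0.10, 0 called). That list is not of oocyte genes alone and shares a gene with the granulosa cell markers. Granulosa cell markers were 8 higher and 5 lower of 13 (median 0.04), with summed levels of 11333 to 13713 CPM in control and 11911 to 13734 CPM in dose 1, which overlapped. Markers of 3 other cell types were mostly higher in dose 1: 7 of 9 theca and steroid cell markers (summed level 7689 to 8313 CPM against 5564 to 7845 CPM in control), 6 of 6 endothelial markers (summed level 385 to 418 CPM against 348 to 380 CPM in control) and 8 of 8 surface epithelium markers (154 to 177 CPM against 66.8 to 161 CPM). The endothelial sums did not overlap and the others did, with none of them called, and their part in the oocyte gene differences was not tested.

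**Figure D3:**
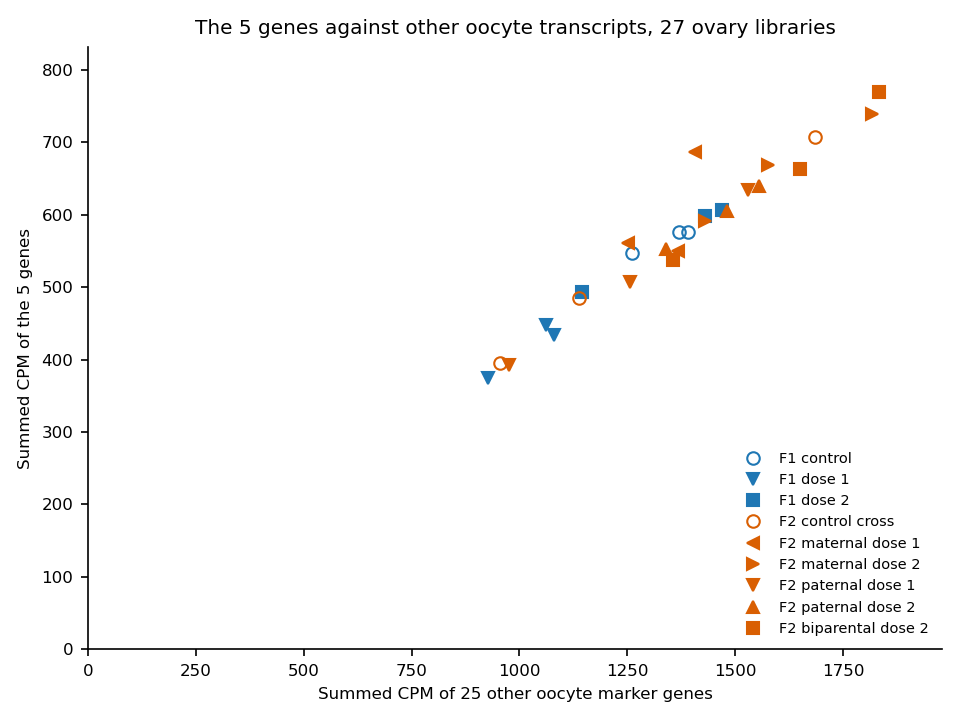
Summed CPM of the 5 genes (y axis) against the summed CPM of 25 other oocyte marker genes (x axis) in the 27 ovary libraries, with both axes from 0. Libraries lay near a line through the origin, with ratios from 0.397 to 0.488. F1 dose 1 libraries were at the lower end of both axes, together with F2 control cross A and F2 paternal dose 1 A.

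In the F2 generation the spread between libraries of one group was wide and no member passed the test between crosses. Zp3 stood at 74.0, 152 and 105 CPM in control cross A, B and C, and Gdf9 at 118, 221 and 147 CPM. Control cross B was the highest and A the lowest of the 3 for every one of the 5 genes. Paternal dose 1 A was likewise the lowest of its group for all 5, at 78.9 CPM of Zp3 against 131 and 100.8 CPM.

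The largest log2 fold change of the 25 in F2, with all libraries, was that of Bmp15 in maternal dose 2. Bmp15 stood at 34.7, 50.1 and 37.0 CPM in the control cross and at 54.7, 53.7 and 62.6 CPM in maternal dose 2. The groups did not overlap, a separation in the higher direction that 7.33% of genes showed and 1 of 5 members. The log2 fold change was 0.47 (SE 0.182, unadjusted p = 0.019, adjusted p = 0.72, edgeR). The other 4 genes overlapped, with log2 fold changes from 0.24 for Zp3 to 0.33 for Gdf9. Control cross B was the highest library of its group for all 5 genes, so leaving it out raises every difference from the control cross. Without it the 5 genes ran from 0.56 for Zp3 to 0.66 for Bmp15. Then 5 of 5, and 1167 of 17635 genes, had an unadjusted edgeR p under 0.05, with 0 called. The members' count follows from which library was left out and is not evidence of a difference. With other single libraries left out, the lowest values were 0.016 for Zp3, 0.14 for Gdf9, 0.15 for Zp1 and Zp2 and 0.36 for Bmp15. With all libraries edgeR called 0 of 5 members and 0% of genes. At an unadjusted p under 0.05 were 1044 genes, 1 of them a member. DESeq2 called 24 genes (0.156%) and no member. Over the 13 alternatives for Bmp15 the adjusted p ran from 0.447 to 1.00. All 9 theca and steroid cell markers were lower in maternal dose 2 (median -0.94, 0 called), with a summed level of 5024 to 5811 CPM against 7930 to 8963 CPM in the control cross, and their part in the difference was not tested.

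Maternal dose 1 gave log2 fold changes from 0.08 for Zp2 to 0.32 for Zp1 and Bmp15, with 0 members called and 0% of genes (edgeR; 2280 genes and no member at an unadjusted p under 0.05; DESeq2 called 45 genes, 0.543%, and no member). Maternal dose 1 C was the highest library of its group for Zp1 (82.1 CPM against 53.6 and 57.6) and for Zp3 (172 CPM against 114 and 107). Without it the difference from the control cross was 0.090 for Zp1, 0.026 for Zp2, 0.021 for Zp3, 0.11 for Gdf9 and 0.38 for Bmp15. Then no member, and 866 of 17649 genes, had an unadjusted edgeR p under 0.05, with 0 called. Without control cross B, in contrast, the difference ran from 0.34 for Zp2 to 0.60 for Zp3. Then 4 of 5, and 2020 of 17635 genes, had an unadjusted edgeR p under 0.05, with 0 called. As above, leaving out the control library highest in the 5 genes raises every difference. The members' counts without control cross B, here and below, are therefore not evidence of a difference. Biparental dose 2 gave 0.19 for Zp2 to 0.41 for Gdf9 (SE 0.225, unadjusted p = 0.0905), with 0 members called and 0% of genes (1566 genes and no member at an unadjusted p under 0.05; DESeq2 called 23 genes, 0.132%, and no member). Without control cross B it gave 0.45 for Bmp15 to 0.71 for Gdf9, and the 0.71 of Gdf9 was then the largest in F2. Then 5 of 5, and 3110 of 17635 genes, had an unadjusted edgeR p under 0.05, with 0 called. With other single libraries left out, the lowest values were 0.032 for Zp2, 0.042 for Zp3, 0.093 for Zp1, 0.15 for Bmp15 and 0.21 for Gdf9. Paternal dose 2 gave 0.10 for Zp3 to 0.32 for Bmp15, with 0 members called and 0% of genes (664 genes and no member at an unadjusted p under 0.05; DESeq2 called 7 genes, 0.0403%, and no member). Without control cross B the range was 0.39 for Zp2 to 0.51 for Bmp15. Then 3 of 5, and 909 of 17635 genes, had an unadjusted edgeR p under 0.05, with 0 called. With other single libraries left out, values fell to as low as -0.13 for Zp3. Paternal dose 1 gave -0.21 for Zp2 to 0.17 for Bmp15, with 0 members and 1 gene (0.00575%) called by edgeR (864 genes and no member at an unadjusted p under 0.05; DESeq2 called 21 genes, 0.121%, and no member). A test of any difference among the 6 F2 groups called 0 members and 1 gene (0.00575%) by edgeR (1852 genes and no member at an unadjusted p under 0.05; DESeq2 called 332 genes, 1.95%, and no member). These comparisons share the control cross libraries. In maternal dose 2 and biparental dose 2, 25 of 25 other oocyte markers were also higher than in the control cross, with medians of 0.36 for both. Their summed level was 1608 ± 195 and 1613 ± 241 CPM in these crosses (SD, n = 3 each). It was 1342 ± 80.9 in maternal dose 1, 1255 ± 277 in paternal dose 1 and 1459 ± 109 in paternal dose 2. The shared control cross was at 1259 ± 380 CPM, with libraries from 954 to 1684.

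Ordered by mean CPM over the 9 groups, F1 dose 1 was lowest for Zp1 (41.1 ± 4.63), Zp2 (138 ± 6.55), Zp3 (75.8 ± 9.28) and Gdf9 (120.0 ± 16.6), and highest were F2 maternal dose 2 for Zp1 (66.7 ± 7.48) and Zp2 (205 ± 19.6) and F2 biparental dose 2 for Zp3 (135 ± 23.2) and Gdf9 (218 ± 40.4; SD, n = 3). Bmp15 had another order, with the F2 control cross lowest at 40.6 ± 8.29 CPM and F1 control highest at 60.1 ± 6.63 CPM. Neighbouring groups in these orders overlapped in all cases but 1, the step from F1 dose 1 to F1 control for Zp3. The highest group mean exceeded the lowest by 1.48-fold for Bmp15 to 1.82-fold for Gdf9.

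Unexposed ovaries of the generations were compared directly. Against F1 control, the F2 control cross differed by a log2 fold change of -0.05 for Zp1, -0.10 for Zp2, 0.18 for Zp3, 0.07 for Gdf9 and -0.50 for Bmp15 (SE 0.191, adjusted p = 0.0681, edgeR). No member was called by edgeR, while 20.8% of 18334 genes were (10.4% higher and 10.4% lower), and 1 member, Bmp15, was among 6383 genes at an unadjusted p under 0.05. The number of genes called fell from 3808 to 742 without F1 control A and to 1359 without control cross B. Bmp15 was the only member whose libraries did not overlap (34.7 to 50.1 CPM against 53.3 to 66.5 CPM), a separation in the lower direction that 21.8% of genes showed. DESeq2 called 23.5% of genes and, of the members, Bmp15 (adjusted p = 0.0417). Without control cross B edgeR also called Bmp15 (adjusted p = 0.0434). That was the control cross library highest in Bmp15, so leaving it out widens the difference. Over the 11 alternatives for Bmp15 the adjusted p ran from 0.0417 to 0.189. Without F1 control A the log2 fold change was -0.51 for Bmp15 and 0.035 for Gdf9. In the pathway lists edgeR called Gtf2a1l (-1.63), Kitl (-1.81), Npr2 (0.44), Cd81 (0.47), Ddx4 (-1.73), Mael (-2.50) and Tex101 (-8.85). Without F1 control A only Kitl (-2.17) and Tex101 (-5.32) of these were called, while Ddx4 was at -0.52, Mael at -0.31, Gtf2a1l at -0.045, Npr2 at 0.47 and Cd81 at 0.40. All 8 testis germ cell markers were called lower in F2, 7 of them also without F1 control A, and generation cannot be told apart from differences in how the libraries were made.

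Within a library, the balance between the 5 genes differed between generations. The ratio of Gdf9 to Bmp15 counts was 2.63, 2.88 and 2.63 in F1 control, 2.57, 2.57 and 3.01 in dose 1, and 2.66, 3.41 and 2.56 in dose 2. In the F2 control cross it was 3.41, 4.41 and 3.97, and over all 18 F2 libraries it ran from 2.81 to 4.86 with a median of 3.76. Of the F2 libraries 15 of 18 lay above the highest F1 library. Means were 2.77 ± 0.285 in F1 (SD, n = 9) and 3.86 ± 0.549 in F2 (n = 18), a 1.39-fold difference (exact permutation test over libraries, two-sided, p = 2.99e-06, adjusted p = 1.49e-05 over the 10 ratios). This test, used for all 10 ratios, pooled the exposure groups of each generation. Generation cannot be told apart here from differences in how the libraries were made.

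The ratio of Zp2 to Zp3 counts was 1.81, 1.89 and 1.73 in F1 control, 1.78, 1.64 and 2.08 in dose 1, and 1.77, 1.76 and 1.74 in dose 2. In the F2 control cross it was 1.73, 1.42 and 1.39, and over all F2 libraries it ran from 1.03 to 1.73 with a median of 1.45. Of the F2 libraries 17 of 18 lay below the lowest F1 library. Means were 1.80 ± 0.124 in F1 and 1.45 ± 0.155 in F2 (exact permutation test, two-sided, p = 2.35e-06, adjusted p = 1.49e-05). Ratios are of counts not scaled by length, so their size is not a ratio of molecules, but their change between libraries does not depend on length.

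Of 10 ratios, 8 differed between generations at an adjusted p under 0.05, and Zp3 to Gdf9 (0.656 ± 0.0478 in F1, 0.649 ± 0.0563 in F2, adjusted p = 0.719, exact permutation test) and Zp2 to Bmp15 (adjusted p = 0.106) did not. Bmp15 was lower in F2 relative to Zp1, Zp3 and Gdf9, and Zp2 was lower relative to Zp1, Zp3 and Gdf9. Zp1 was in turn lower in F2 relative to Zp3 and Gdf9. These ratios were chosen after the levels had been seen. The 10 ratios come from 5 genes and are not independent. Ratios of other genes were not tested, and edgeR called 20.8% of 18334 genes between the unexposed generations. Without the 2 libraries that stood apart, the same 8 ratios had an adjusted p under 0.05. Between the unexposed groups alone the 3 against 3 libraries cannot give an exact p under 0.1, and the values there were 0.1 to 0.3.

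**Figure D4:**
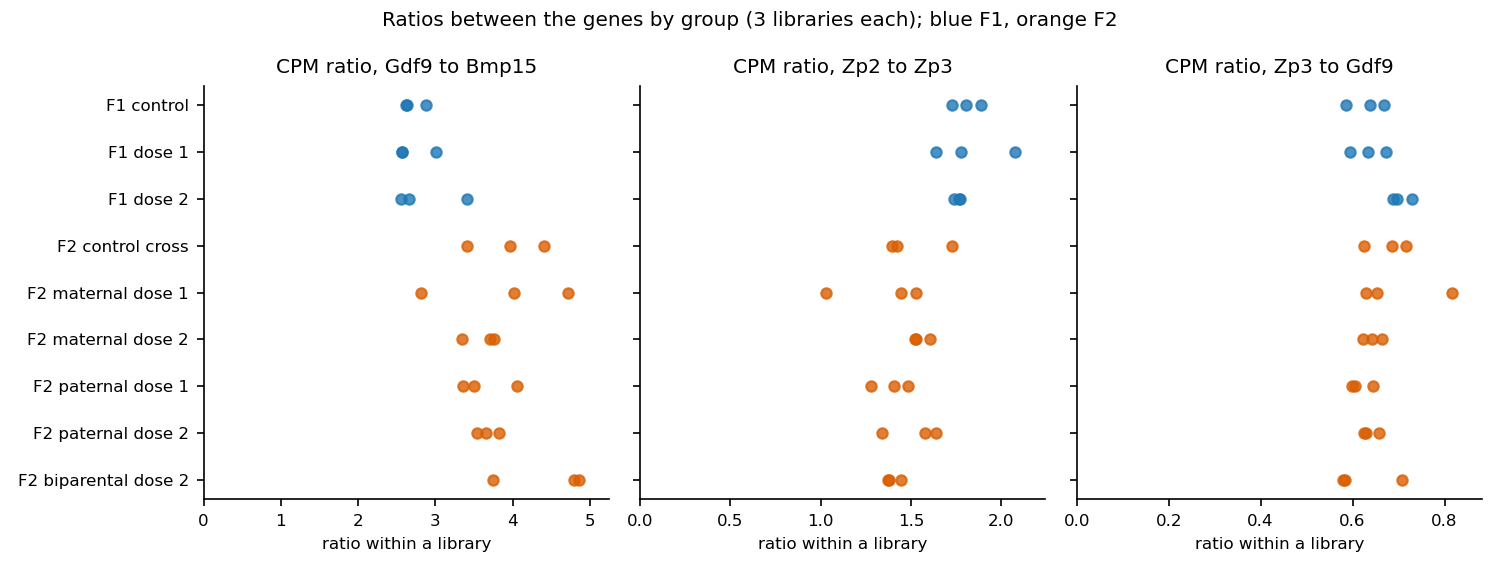
Ratios of CPM within a library (x axes, from 0) for 3 pairs of genes in the 9 ovary groups, with 1 point per library. Gdf9 to Bmp15 was higher in 15 of 18 F2 libraries than in any F1 library, Zp2 to Zp3 was lower in 17 of 18, and Zp3 to Gdf9 overlapped.

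The 5 genes varied together across ovary libraries. On log2(CPM + 1), Pearson's r of the 10 pairs over 27 libraries ran from 0.484 to 0.952 with a median of 0.777, and Spearman's rho from 0.437 to 0.940. The permutation test (100000 resamples, two-sided) gave adjusted p-values of at most 0.0103 for r and 0.0242 for rho, over 10 pairs each. The closest pairs were Zp1 with Zp3 (r = 0.952), Zp3 with Gdf9 (r = 0.944) and Zp1 with Gdf9 (r = 0.917), for each of which the raw p of 1e-05 was the smallest the resamples can give. The loosest were Zp3 with Bmp15 (r = 0.484) and Gdf9 with Bmp15 (r = 0.542).

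Within each generation 3 of the 4 pairs with Bmp15 had a higher r than over all libraries. Zp3 with Bmp15 reached r = 0.770 in the 9 F1 libraries and 0.644 in the 18 F2 libraries, Gdf9 with Bmp15 reached 0.874 and 0.743, and Zp1 with Bmp15 0.791 and 0.710. Zp2 with Bmp15, at 0.694 over all libraries, had 0.596 in F1 and 0.785 in F2, so it was looser in F1. Over all pairs r ran from 0.596 to 0.939 in F1 and from 0.644 to 0.966 in F2. As deviations from the 9 group means, which remove every difference between groups, r ran from 0.600 to 0.943 with a median of 0.842. Leaving out the 2 libraries farthest from the median of the first gene gave 0.444 to 0.950, and leaving out the 2 libraries that stood apart gave 0.588 to 0.960. All points share the library total as divisor.

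The 10 genes whose profile was most like the mean profile of the 5 (each centred and scaled) over the 27 ovary libraries, among 14888 genes with a mean of at least 1 CPM, were Padi6 (r = 0.961), Klhl8 (0.948), Astl (0.942), Noto (0.935), Accsl (0.934), Oas1d (0.932), Ccno (0.932), Pabpc1l (0.930), Oas1c (0.928) and Pramel13 (0.925). Padi6 encodes an oocyte peptidylarginine deiminase of the complex named above. Astl encodes ovastacin, the egg protease that cleaves ZP2 after fertilisation. An r over 0.8 was reached by 93 genes, 0.625% of those ranked, and by 16 of 25 other oocyte marker genes (median r 0.825). The receptor and SMAD genes had a median r of -0.337, the granulosa cell markers 0.0957 and all ranked genes -0.0377. These are descriptions of 27 libraries that share groups and divisors.

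Testis levels served as the contrast. Zp3 ran from 0.0951 to 0.536 CPM over the 27 testis libraries, with a median of 0.251 (3 to 24 counts). Gdf9 ran from 0.190 to 0.835 CPM, with a median of 0.505 (6 to 43 counts). Both were above 0 in 27 of 27 testis libraries, at low levels. Zp1 had 0 to 15 counts and was at 0 in 4 libraries. Zp2 had 0 to 26 counts and Bmp15 0 to 11, and each was at 0 in 15 of 27 libraries. A count of 0 allows a level of up to 3 counts, which is 0.0245 to 0.0951 CPM at these depths, from counting error only. At or under 3 counts were 14 libraries for Zp1, 22 for Zp2 and 25 for Bmp15.

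The lowest ovary library exceeded the highest testis library by 148-fold for Zp1, 310-fold for Zp2, 121-fold for Zp3, 123-fold for Gdf9 and 215-fold for Bmp15, so no library overlapped. In the edgeR test of 6 unexposed ovary and 6 unexposed testis libraries, with generation as a covariate, 5 of 5 members were called higher in ovary, where 44.9% of 19320 genes were (89% in either direction). Zp3 was higher by a log2 fold change of 8.09 (SE 0.31, adjusted p = 1.1e-09) and Gdf9 by 7.75 (SE 0.235, adjusted p = 2.62e-10). For Zp1, Zp2 and Bmp15 the adjusted p was at most 1.06e-07, and the fitted size rests on testis counts near 0. All 5 were also called with any 1 of the 12 libraries left out, F1 control A included. Tissue also differs in sex and in age.

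Genes of the same pathways were mostly higher in ovary too. Of 17 receptor, SMAD and convertase genes, 15 were called higher and 1 lower (Smad6), led by Bmpr1b, a type I receptor (log2 fold change 8.08), Bmpr2, the type II receptor (4.30), Pcsk5, a proprotein convertase (3.89), and Smad3 (3.63). Of 12 cumulus and granulosa targets tested, 12 were called higher, led by Grem1 (10.83), Slc38a3 (9.64), Fst (8.54) and Amh (6.08). Of 10 oocyte surface and zona interacting genes, 10 were called higher, led by Astl (10.37), Oosp1 (9.41), Izumo1r, the egg receptor for sperm IZUMO1 (8.33), and Oosp3 (7.61). Of 11 oocyte transcription regulators, 8 were called higher and 2 lower (Gtf2a1l and Sohlh2), led by Obox1 (10.15), Tbpl2 (9.07), Obox5 (7.11) and Nobox (6.55). Of 25 other oocyte markers, 22 were called higher and 1 lower (Btg4), led by Oog3 (11.39), Oog2 (11.09), Zar1 (10.94) and H1f8 (8.47). Of 6 germ cell genes shared by both sexes, Kit was called higher (2.15), and Tex101 (-8.42), Mael (-6.27), Ddx4 (-5.60), Sycp3 (-4.87) and Dazl (-3.81) lower in ovary.

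**Figure D5:**
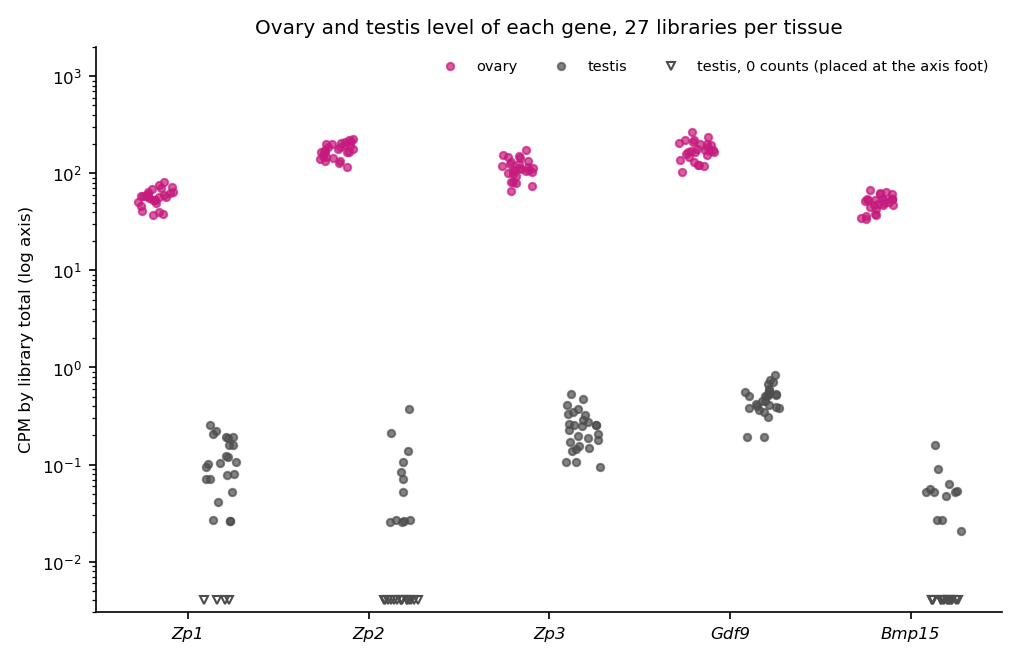
CPM of each gene on a log axis in 27 ovary and 27 testis libraries, with libraries of 0 counts drawn as open triangles at the foot of the axis. The lowest ovary library was 121-fold to 310-fold above the highest testis library.

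Within testis only Zp3 and Gdf9 passed the filter on low counts. In the 7 testis comparisons with the control of the same generation neither edgeR nor DESeq2 called either gene, and neither had an unadjusted edgeR p under 0.05. The share of all genes that edgeR called was 0.021% for F1 dose 1 and 0.00526% for F1 dose 2. In F2 it was 0.0103% for maternal dose 1, 0.372% for maternal dose 2, 0.201% for paternal dose 1, 0.00516% for paternal dose 2 and 0.0155% for biparental dose 2. DESeq2 called 0.142% and 0.0263% of genes in the F1 comparisons, and 0.0619%, 2.02%, 1.4%, 0.0413% and 0.165% in the F2 comparisons in the same order. Gdf9 stood at 0.578 ± 0.117 CPM in F1 control, 0.427 ± 0.0956 in dose 1 and 0.501 ± 0.0748 in dose 2 (SD, n = 3). Its log2 fold change in dose 1 was -0.41 with an SE of 0.303, so at 16 to 43 counts a difference of the size seen in ovary was not detectable. Zp3 gave log2 fold changes from -0.70 in F2 maternal dose 1 to 0.26 in F2 maternal dose 2, with SEs of 0.469 to 0.602.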

How the data were processed

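Per the file contents and labels, the authors deposited raw read counts per gene, not normalized, for ovary and testis. Per the labels' protocols, RNA was extracted with TRIZOL and libraries were made with a stranded mRNA ligation kit. Tools listed in the submitters' processing notes, with no role given, include TopHat2 2.1.1 with Bowtie2 2.4.5, featureCounts 2.0.3 and DESeq2 1.32.0; the build listed is mm39. No source used here gives the annotation or the strand setting of the counting. No exon of another GENCODE M21 gene overlaps an exon of the 5 genes.

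Counts were fitted with edgeR 4.0.16 (R 4.3.3): TMM scaling, filterByExpr at a minimum count of 10, group means, one fit per tissue and generation, quasi-likelihood F tests, Benjamini-Hochberg adjustment over all genes tested at 0.05. The generation comparison used all 27 ovary libraries. SEs are the log2 fold change divided by the root of F. Alternatives were RLE scaling, no filter, DESeq2 1.42.0, a replicate block, CPM on TMM library sizes, another pseudocount, other sets of libraries and leaving out each library. The ratios, the list values without single libraries and the values without both libraries that stood apart were added after seeing the data. Counts were simulated for F1 dose 1 against control on 17896 genes, with the changed genes drawn at random. The test recovered 54% of genes changed 2-fold and 74% of those changed 4-fold.

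All 5 genes are named in every comparison. List genes are named where they passed (all if 6 or fewer in a list, otherwise the 4 largest), and the 10 most alike genes by r; Nobox and Figla were named after their values were seen. The members and lists were chosen with earlier results of these data known. Replicate counts differed by more than sampling noise in every pair (lowest chi-square per degree of freedom 7.43).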

Additional observations from a re-analysis of the deposited data

How the results depend on the processing

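In 105 of 109 counts of members called under other settings the count did not move, and the exceptions were DESeq2's 2 in F1 dose 1 against control, 3 in dose 2 against dose 1, 3 among the 3 F1 groups and 1 in the F2 control cross against F1 control. Leaving out single libraries gave 0 to 1 members called in the last of these. Replicate letters did not pair the libraries: same-letter deviations correlated from -0.58 to 0.45 in F1 (3 of 9 pairs over 0.1) and from -0.24 to 0.21 in F2. With a replicate block 0 members were called in every ovary and testis comparison between groups and 5 between tissues, as without it.

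Log2 fold changes of uncalled differences turned sign when single libraries were left out. In F1 dose 2 against control the ranges were -0.072 to 0.022 for Zp1, -0.039 to 0.12 for Zp2 and -0.16 to 0.023 for Gdf9. In the F2 control cross against F1 control they were -0.29 to 0.12 for Zp1, -0.37 to 0.056 for Zp2, -0.13 to 0.41 for Zp3 and -0.23 to 0.26 for Gdf9. In maternal dose 1 Zp2 ranged from -0.078 to 0.34. In paternal dose 1 the ranges were -0.26 to 0.18 for Zp1, -0.38 to 0.051 for Zp2, -0.33 to 0.21 for Zp3 and -0.19 to 0.35 for Gdf9, and in paternal dose 2 -0.032 to 0.39 for Zp2 and -0.13 to 0.41 for Zp3.

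Between unexposed groups alone the log2 ratios, F2 minus F1, were 0.055 (Zp1 to Zp2), -0.20 (Zp1 to Zp3), -0.11 (Zp1 to Gdf9), 0.42 (Zp1 to Bmp15), -0.26 (Zp2 to Zp3), -0.16 (Zp2 to Gdf9), 0.37 (Zp2 to Bmp15), 0.63 (Zp3 to Bmp15) and 0.53 (Gdf9 to Bmp15), with too few libraries to pass. Zp3 to Gdf9, which had missed the threshold, turned sign to 0.099. The median r of the 10 pairs was 0.777, and 0.720 to 0.884 over the other ways it was computed (lowest without the 2 libraries farthest from the median, highest in F1 alone). With 3 libraries a group the test recovered 54% of simulated 2-fold changes, and the differences seen in F1 were smaller than 2-fold.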
